A study of Mus musculus with 25 samples.

Results

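The cluster that runs from miR-17 to miR-92a is a set of miRNAs cut from 1 primary transcript, and its members were chosen by name: mmu-miR-17-5p, mmu-miR-18a-5p, mmu-miR-19a-3p, mmu-miR-20a-5p, mmu-miR-19b-3p and mmu-miR-92a-3p, the arms usually taken as the products of the 6 hairpins. All 6 were among the 1122 mouse miRNAs on the array, and all 6 passed the filter on low values, which kept 330 miRNAs. They were measured in 25 samples of female FVB mice, 1 array each. The tumour groups were 7 mammary tumours of mice with a Met transgene under the mouse mammary tumour virus promoter (MMTV-Met, called Met), 8 of mice with that transgene, 1 floxed Trp53 allele (Trp53fl/+) and Cre (MetTrp53), and 8 of mice with Trp53fl/+ and Cre without the transgene (Trp53). The normal group was 2 pools of wild-type mammary gland, 1 from multiparous mice (pool 1) and 1 from nulliparous mice (pool 2). The labels give neither ages nor the promoter that drives Cre. By pathology, 7 tumours were spindloid, 3 were intermediate, 12 had one of the other stated carcinoma types, and 1 MetTrp53 tumour had none stated.

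A miRNA guides a silencing complex to messenger RNAs that pair with its seed, bases 2 to 8. The MYC transcription factor is known to raise transcription of this cluster, which is amplified or overexpressed in several cancers. In human cells miR-17-5p and miR-20a-5p are known to repress E2F1 and CDKN1A, and miR-18a-5p to repress CTGF. In mammals the cluster has paralogs, 1 set that starts with miR-106a on the X chromosome and 1 that starts with miR-106b within Mcm7.

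The 6 hairpins lie in 836 bases of mouse chromosome 14, at chr14:115043671-115044506 on the + strand (GRCm38.p6, RefSeq). The mature sequences below, from RefSeq, are shown because the comparisons are made by seed group. They run 5′ to 3′ with the seed in capitals, and fall into 4 seed groups: miR-17-5p with miR-20a-5p, miR-18a-5p alone, miR-19a-3p with miR-19b-3p, and miR-92a-3p alone.
miR-17-5p, chr14:115043684-115043706: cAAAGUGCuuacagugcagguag
miR-20a-5p, chr14:115044183-115044205: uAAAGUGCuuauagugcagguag
miR-18a-5p, chr14:115043867-115043889: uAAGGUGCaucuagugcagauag
miR-19a-3p, chr14:115044048-115044070: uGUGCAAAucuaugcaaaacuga
miR-19b-3p, chr14:115044358-115044380: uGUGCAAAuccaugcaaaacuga
miR-92a-3p, chr14:115044476-115044496: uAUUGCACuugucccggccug
Counting from 1 at the 5′ end, miR-17-5p and miR-20a-5p differ by C1U and C12U, and miR-19a-3p and miR-19b-3p by U11C alone. miR-18a-5p differs from miR-17-5p at 6 of 23 bases, of which A4G lies in the seed. The probes of such near-identical sequences may share signal, which was not tested. Mature miR-19b-3p and miR-92a-3p are also encoded on the X chromosome, at chrX:52741991-52742013 and chrX:52741854-52741874 on the minus strand, so their levels here cannot be assigned to 1 locus.
The 4 paralog products that were tested are shown for the comparisons by pathology and of likeness, and carry the seeds of miR-17-5p and miR-92a-3p.
miR-20b-5p, chrX:52742159-52742181, minus strand: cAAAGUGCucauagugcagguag
miR-106b-5p, chr5:138165787-138165807, minus strand: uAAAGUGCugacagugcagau
miR-93-5p, chr5:138165574-138165596, minus strand: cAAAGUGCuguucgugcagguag
miR-25-3p, chr5:138165332-138165353, minus strand: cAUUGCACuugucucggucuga

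Levels are log2 of the scaled spot intensity, on a scale whose lowest possible value, the floor, is 3.60. Levels of different miRNAs are not comparable, because their probes differ. Each array detected 220 to 334 mouse miRNAs, no mouse spot was saturated, and the percentile used for scaling ranged from 279 to 909 intensity units. The pools correlated at r = 0.98 over the tested miRNAs. Markers of other tissues differed between the groups: all 5 muscle miRNAs fell in tumours (summed level 5.92 to 11.06 in tumours, 13.39 to 13.89 in pools), as did 2 of 3 adipose (7.01 to 9.78 in tumours, 9.98 to 11.16 in pools), 2 of 2 endothelial (7.57 to 10.46 in tumours, 10.75 to 11.05 in pools) and 2 of 6 mesenchymal ones (7.48 to 12.08 in tumours, 10.04 to 10.93 in pools). The calls were 0 of 5 for leukocyte, 0 of 2 for erythroid and 0 of 5 for epithelial ones. Every one of these markers was well above background on at least 1 array. Their part in the differences from normal below was not tested, and in bulk tissue fewer cells of a type and less RNA per cell cannot be told apart.

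The first comparison asked how the cluster differs between tumours and normal gland. miR-19b-3p and miR-20a-5p rose in tumours, by 1.62 and 1.60 on the log2 scale, which is 3.07-fold and 3.03-fold. miR-18a-5p rose too, by a size that the floor sets, as both pools lie on it (2.09 here, 1.17 to 3.03 with other floors). miR-19a-3p (1.54), miR-92a-3p (0.84) and miR-17-5p (0.28) did not pass the test. A miRNA is said to rise or fall where limma's p, adjusted by the Benjamini-Hochberg method over all 330 miRNAs tested, was under 0.05. By that rule 3 of 6 members were higher and 0 lower, where 4.85% of all tested miRNAs were higher and 7.88% lower.

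Among the AAAGUGC pair, miR-20a-5p ranged in level over 8.21 to 10.13 (median 8.66) in Met tumours, 8.02 to 9.38 (median 8.49) in MetTrp53 tumours and 7.36 to 9.11 (median 8.48) in Trp53 tumours, against 7.00 and 6.99 in the pools. Every tumour lay above both pools. The difference from normal was 1.60 (SE 0.39, 95% interval 0.79 to 2.41, limma adjusted p = 0.00567).
Its seed partner miR-17-5p was near the floor throughout, at 3.60 to 4.88 (median 3.71) in Met, 3.60 to 4.30 (median 3.85) in MetTrp53 and 3.60 to 4.30 (median 3.71) in Trp53 tumours, with both pools at 3.60. It was well above background in 14 of 23 tumours and in neither pool, so the floor enters both means and no fold is given. The difference of 0.28 (limma adjusted p = 0.561) was 0.06 to 1.22 over the settings tried and passed in none. Of the 2 probes of miR-17-5p, 1 was well above background in only 3 tumours and gave 0.02, a value set by the floor. The other was well above background in 14 tumours and gave 0.54.

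miR-18a-5p ranged over 4.21 to 7.30 (median 4.86) in Met, 5.10 to 6.91 (median 5.84) in MetTrp53 and 4.99 to 6.79 (median 5.55) in Trp53 tumours. Both pools were at the floor of 3.60, and 1 of them was well above background. The groups did not overlap, and the difference was 2.09 (SE 0.57, 95% interval 0.91 to 3.28, limma adjusted p = 0.0137). Its size depends on the floor, with 3.03 at a floor 4 times lower and 1.17 (adjusted p = 0.203) at a floor 2 times higher. Its 2 probes gave 1.49 and 2.72.

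In the GUGCAAA pair, miR-19b-3p ranged over 7.80 to 9.67 (median 8.21) in Met, 7.85 to 9.12 (median 8.33) in MetTrp53 and 7.28 to 8.81 (median 7.69) in Trp53 tumours, against 6.48 and 6.80 in the pools. All tumours were above both pools, and the difference was 1.62 (SE 0.40, 95% interval 0.79 to 2.45, limma adjusted p = 0.0064).
miR-19a-3p ranged over 4.34 to 7.16 (median 5.21) in Met, 4.71 to 6.59 (median 5.36) in MetTrp53 and 3.91 to 6.02 (median 4.45) in Trp53 tumours, against 3.60 and 3.64 in the pools, of which 1 was well above background. Here too the groups did not overlap, yet the difference of 1.54 (SE 0.57, 95% interval 0.36 to 2.72) missed the threshold (limma adjusted p = 0.0835). It passed with a floor 4 times lower, at 2.08 (adjusted p = 0.0149), and in 3 other settings.

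miR-92a-3p, known for its action in endothelial cells, ranged over 7.77 to 9.34 (median 8.58) in Met, 7.20 to 8.80 (median 8.30) in MetTrp53 and 7.28 to 8.95 (median 8.49) in Trp53 tumours, against 7.44 and 7.57 in the pools. Of the 23 tumours, 20 lay above both pools. The difference was 0.84 (SE 0.36, 95% interval 0.09 to 1.59, limma adjusted p = 0.156).
Counted by overlap alone, all 23 tumours were above both pools for 4 of 6 members, where this held for 5.76% of all tested miRNAs. All 23 tumours were below both pools for 0 of 6 members and 7.58% of all tested miRNAs.

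**Figure D1:**
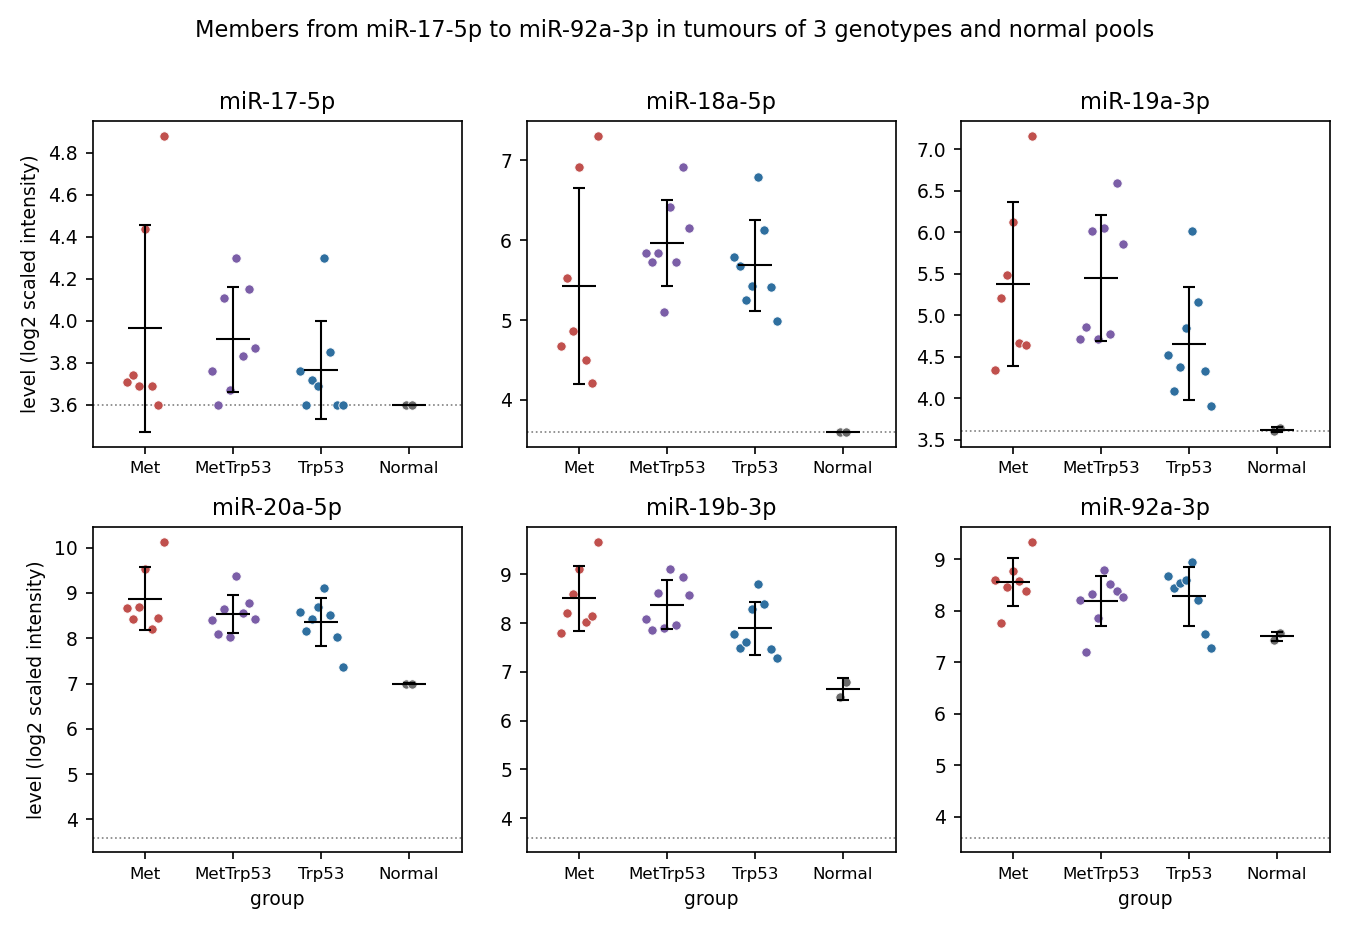
Level of each member (log2 scaled intensity, vertical axis, a separate scale per panel) in Met, MetTrp53 and Trp53 tumours and normal pools. Points are arrays, black bars the mean and SD, and the dotted line the floor of 3.60. For miR-18a-5p, miR-19a-3p, miR-20a-5p and miR-19b-3p every tumour is above both pools.

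The tests against normal rest on 2 pools. Without pool 1 none of the 3 members passed (limma adjusted p = 0.200 for miR-18a-5p, 0.200 for miR-19b-3p and 0.119 for miR-20a-5p), and without pool 2 none did either (0.146, 0.0551 and 0.0922 in the same order), although the differences stayed between 1.46 and 2.09. Scaling over all mouse probes lowered miR-20a-5p to 1.23 (adjusted p = 0.0684) and miR-19b-3p to 1.25 (adjusted p = 0.0807), and turned the split of all calls to 5 higher and 35 lower, beside 16 higher and 26 lower here. The median difference of the 160 miRNAs detected on all arrays was 0.34 here and 0.01 with that scaling. Relative to 0.34, the 3 members measured in both pools stood at 1.28 (miR-19b-3p), 1.26 (miR-20a-5p) and 0.50 (miR-92a-3p). The others move with the floor: with floors 4 times lower and 2 times higher miR-18a-5p stood at 2.67 and 0.93, miR-19a-3p at 1.72 and 0.49, and miR-17-5p at 0.86 and -0.18.

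Each pool shared a slide with 4 tumours, which gave a comparison within a slide. The tumours' mean minus the pool was 1.45 on slide 1 and 1.84 on slide 3 for miR-20a-5p, 1.31 and 1.81 for miR-19b-3p, 1.90 and 2.56 for miR-18a-5p, 0.82 and 2.07 for miR-19a-3p, 1.04 and 0.91 for miR-92a-3p, and 0.11 and 0.53 for miR-17-5p. The pool was at the floor on both slides for miR-17-5p and miR-18a-5p and on slide 1 for miR-19a-3p, so these differences could not fall below 0.

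Each genotype was also set against the same pools, so that these 3 comparisons share their normal samples. In Met tumours 2 of 6 members rose (3.94% of all tested miRNAs were higher), miR-20a-5p by 1.88 (SE 0.42, adjusted p = 0.00372) and miR-19b-3p by 1.87 (SE 0.44, adjusted p = 0.00511). In MetTrp53 tumours 4 of 6 did (6.36% of all higher): miR-18a-5p by 2.37 (adjusted p = 0.0102), miR-19a-3p by 1.83 (adjusted p = 0.0459), miR-19b-3p by 1.74 (adjusted p = 0.00662) and miR-20a-5p by 1.55 (adjusted p = 0.0136). In Trp53 tumours 2 of 6 did (5.45% of all higher): miR-18a-5p by 2.08 (adjusted p = 0.0265) and miR-20a-5p by 1.37 (adjusted p = 0.0331). miR-17-5p and miR-92a-3p passed in none of the 3, all by limma. The call of miR-19a-3p in MetTrp53 tumours held in 7 of 14 settings and 13 of 25 fits that left out 1 array, and was lost with slide as a block (1.64, adjusted p = 0.0832) and with scan date as a block (1.57, adjusted p = 0.123). With scan date as a block both calls in Trp53 tumours were lost (adjusted p = 0.0519 for miR-18a-5p and 0.0542 for miR-20a-5p). miR-92a-3p stood at 1.05 in Met, 0.69 in MetTrp53 and 0.78 in Trp53 tumours.

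**Figure D2:**
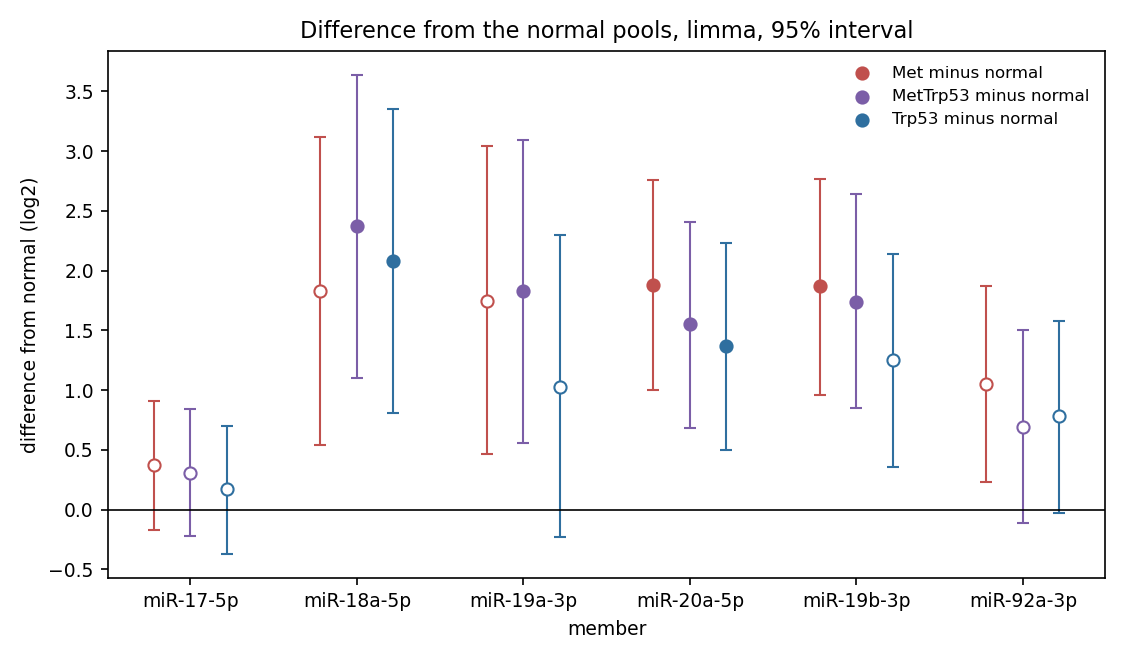
Difference of each member from the normal pools (log2, vertical axis) in Met, MetTrp53 and Trp53 tumours, with limma's 95% interval. Filled points have an adjusted p under 0.05, and open points do not. miR-20a-5p is filled in all 3 genotypes, and miR-17-5p and miR-92a-3p in none.

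The second comparison asked whether the cluster differs between genotypes. Parity differed with genotype: 6 Met tumours came from multiparous and 0 from nulliparous mice (1 not stated), against 2 and 6 of the MetTrp53 tumours and 2 and 3 of the Trp53 tumours (3 not stated). No member passed limma's test between any 2 genotypes or the F-test over all 3, in which 5.76% of all tested miRNAs passed. Of all tested miRNAs 4.55% were higher and 5.45% lower in Met than in Trp53 tumours, and 0% differed in either of the comparisons of MetTrp53. At an unadjusted p under 0.05 the count was 1 of 6 members in Met against Trp53 (24.2% of all), 0 in MetTrp53 against Met (18.5% of all) and 0 in MetTrp53 against Trp53 (6.97% of all).
The 1 was miR-19b-3p, whose mean level was 8.51 ± 0.67 (SD, n = 7) in Met and 7.89 ± 0.54 (SD, n = 8) in Trp53 tumours, a difference of 0.62 (95% interval 0.03 to 1.20, limma adjusted p = 0.171). miR-19a-3p differed by 0.72 (95% interval -0.11 to 1.55), miR-20a-5p by 0.51 (-0.05 to 1.08), miR-92a-3p by 0.27 (-0.25 to 0.80), miR-17-5p by 0.20 (-0.15 to 0.55) and miR-18a-5p by -0.26 (-1.09 to 0.58) between these groups.

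By mean level, miR-20a-5p ran from 8.87 ± 0.70 in Met through 8.54 ± 0.43 in MetTrp53 to 8.36 ± 0.52 in Trp53 tumours and 6.99 ± 0.01 in pools (SD, n = 7, 8, 8 and 2). miR-18a-5p had another order, 5.97 ± 0.54 in MetTrp53, 5.68 ± 0.57 in Trp53 and 5.43 ± 1.22 in Met tumours, with 3.60 in both pools. Neighbouring genotypes in these orders did not differ beyond their spread, and the intervals still allow sizeable differences, such as -0.29 to 1.37 for miR-18a-5p and -0.90 to 0.23 for miR-20a-5p in MetTrp53 against Met tumours.

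The third comparison set spindloid tumours, which have spindle-shaped cells, against the other carcinomas, with genotype as a covariate. miR-92a-3p fell in spindloid tumours and was the 1 member of 6 that passed, where 4.24% of all tested miRNAs were lower and 1.52% higher. It ranged over 7.20 to 8.67 (median 7.77) in the 7 spindloid tumours and 8.22 to 9.34 (median 8.56) in the 12 carcinomas. The ranges overlap: Trp53 tumour 1, at 8.67, and MetTrp53 tumour 7, at 8.38, are the spindloid tumours above the lowest carcinoma. The difference was -0.72 (SE 0.21, 95% interval -1.15 to -0.29, limma adjusted p = 0.0467).
The call was lost in 9 other settings, with differences of -0.77 to -0.54 over all settings and adjusted p up to 0.294, and when any of 15 of the 22 tumours was left out (-0.86 to -0.63, adjusted p up to 0.205, the last without Met tumour 2, the only spindloid Met tumour). Within genotypes the difference was -0.92 in Met (1 spindloid against 6), -0.63 in MetTrp53 and -0.70 in Trp53 tumours (3 against 3 each). Within slides 1 to 5 it was 0.25, -1.05, -0.70, -1.03 and -1.51, each from 1 or 2 spindloid tumours.

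The other members gave -0.49 (95% interval -1.04 to 0.07) for miR-20a-5p, -0.34 (-0.93 to 0.26) for miR-19b-3p, -0.20 (-1.08 to 0.69) for miR-19a-3p, -0.16 (-0.53 to 0.20) for miR-17-5p and -0.05 (-0.94 to 0.84) for miR-18a-5p, none of which passed. miR-20a-5p ranged over 7.36 to 8.77 (median 8.09) in spindloid tumours and 8.16 to 10.13 (median 8.65) in carcinomas.
Epithelial markers moved with the pathology: all 5 miR-200 family members fell in spindloid tumours (summed level 5.92 to 6.85 in spindloid tumours, 6.05 to 12.26 in carcinomas), and 1 of 6 mesenchymal miRNAs rose (9.25 to 12.08 in spindloid tumours, 7.48 to 10.85 in carcinomas). Their part in the difference of miR-92a-3p was not tested.

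**Figure D3:**
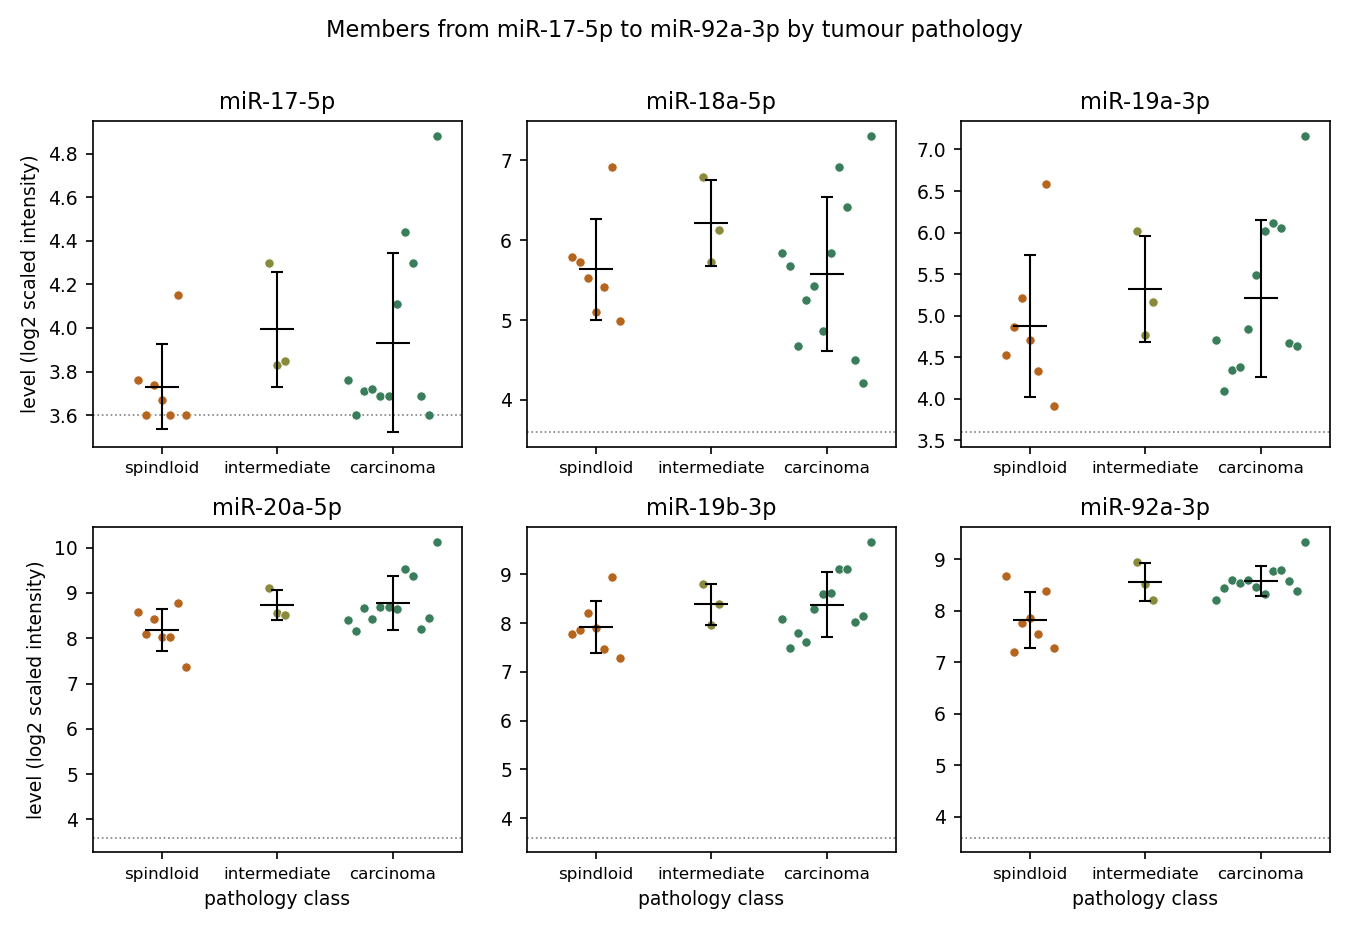
Level of each member (log2 scaled intensity, vertical axis, a separate scale per panel) in spindloid (7), intermediate (3) and carcinoma (12) tumours. Points are tumours, black bars the mean and SD, and the dotted line the floor. For miR-92a-3p, 5 of 7 spindloid tumours lie below the lowest carcinoma, at 8.22.

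In the 3 intermediate tumours miR-92a-3p was at 8.22, 8.53 and 8.95. No member passed in intermediate against carcinoma or in intermediate against spindloid tumours, where 0% of all tested miRNAs did in either direction. Without adjustment limma's p was under 0.05 for 0 of 6 members in the first (7.88% of all) and 1 of 6 in the second (1.52% of all). That member was miR-92a-3p, at 0.76 (95% interval 0.17 to 1.35, limma adjusted p = 1).

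To ask whether members changed by the same amount, the difference of 2 members within each array was compared between groups for all 15 pairs, with exact two-sided permutation tests and Benjamini-Hochberg adjustment over the 15. Between tumours and pools the test has 300 arrangements and a smallest p of 0.00333, and 5 of 15 pairs had an adjusted p under 0.05. The share over all pairs of tested miRNAs is not given, for this count or for those between other groups. Of these, 4 set miR-17-5p against miR-18a-5p, miR-19a-3p, miR-20a-5p or miR-19b-3p, with differences of -1.83, -1.25, -1.31 and -1.33. The floor, on which miR-17-5p lay in both pools, sets these values, so they do not show whether miR-17-5p and its seed partner miR-20a-5p changed by different amounts.
The fifth pair was free of the floor. miR-20a-5p minus miR-92a-3p was -0.37 to 0.89 in tumours, against -0.58 and -0.45 in pools, so every tumour lay above both pools. Its difference was 0.76 (exact permutation p = 0.00333, the smallest possible, adjusted p = 0.0125), or 0.41 on slide 1 and 0.93 on slide 3. With 2 pools that p adds little to the separation itself, and how many other pairs of miRNAs separate so is not given. miR-19b-3p against miR-92a-3p gave a like value of 0.78 (exact p = 0.0333, adjusted p = 0.0714). The seed partners miR-19a-3p and miR-19b-3p differed by -0.08 (exact p = 0.767). The floor enters that value, as the pools had miR-19a-3p at 3.60 and 3.64. Relative to the median difference of miRNAs detected on all arrays, miR-19a-3p stood at 1.72 and miR-19b-3p at 1.26 with a floor 4 times lower. With a floor 2 times higher they stood at 0.49 and 1.38. Whether these seed partners changed by the same amount is thus not shown. miR-20a-5p and miR-19b-3p differed by -0.02 (exact p = 0.92). With 1 pool this test cannot pass unless nearly all pairs reach its smallest p, so leaving out a pool says little about it.

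Between genotypes 1 of 15 pairs passed in Met against Trp53 tumours, and 0 of 15 in each comparison of MetTrp53, where 4 pairs (against Met) and 7 pairs (against Trp53) had an unadjusted exact p under 0.05. miR-18a-5p minus miR-19a-3p was -0.63 to 0.79 (mean 0.05) in Met tumours and 0.58 to 1.59 (mean 1.03) in Trp53 tumours, which overlap slightly. The difference was -0.98 (exact permutation p = 0.000622, adjusted p = 0.00932), and the number of pairs that passed was 3 with a floor 4 times lower. Over the 23 tumours, 1 probe of miR-18a-5p was well above background in 20 and 1 of miR-19a-3p in 17. The floor may therefore enter the levels of both members. Markers of other cell types differed between the same groups, with 3 of 5 epithelial miRNAs higher in Met tumours (summed level 5.92 to 12.26 in Met, 5.92 to 11.10 in Trp53 tumours), and 1 of 6 mesenchymal (7.48 to 11.45 in Met, 9.38 to 11.95 in Trp53 tumours) and 1 of 5 leukocyte miRNAs (7.14 to 10.63 in Met, 8.53 to 10.67 in Trp53 tumours) lower, and their part was not tested. Within slides 1 to 5 the difference of this pair was -1.10, -0.89, 0.02, -1.32 and -0.94, from 1 or 2 tumours of each genotype. Within carcinomas it was -1.01 (6 Met against 3 Trp53), as 6 of 7 Met and 3 of 8 Trp53 tumours were in that class. In MetTrp53 against Trp53 tumours the same pair gave -0.51 (exact p = 0.0172, adjusted p = 0.0802).
Between spindloid tumours and carcinomas, with labels permuted within genotype, 0 of 15 pairs passed and 3 had an unadjusted exact p under 0.05. The lowest was miR-17-5p against miR-92a-3p, at 0.56 (exact p = 0.00357, adjusted p = 0.0536). miR-17-5p lay near the floor of 3.60, with a median of 3.67 in spindloid tumours and 3.71 in carcinomas. The floor therefore enters this difference too.

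**Figure D4:**
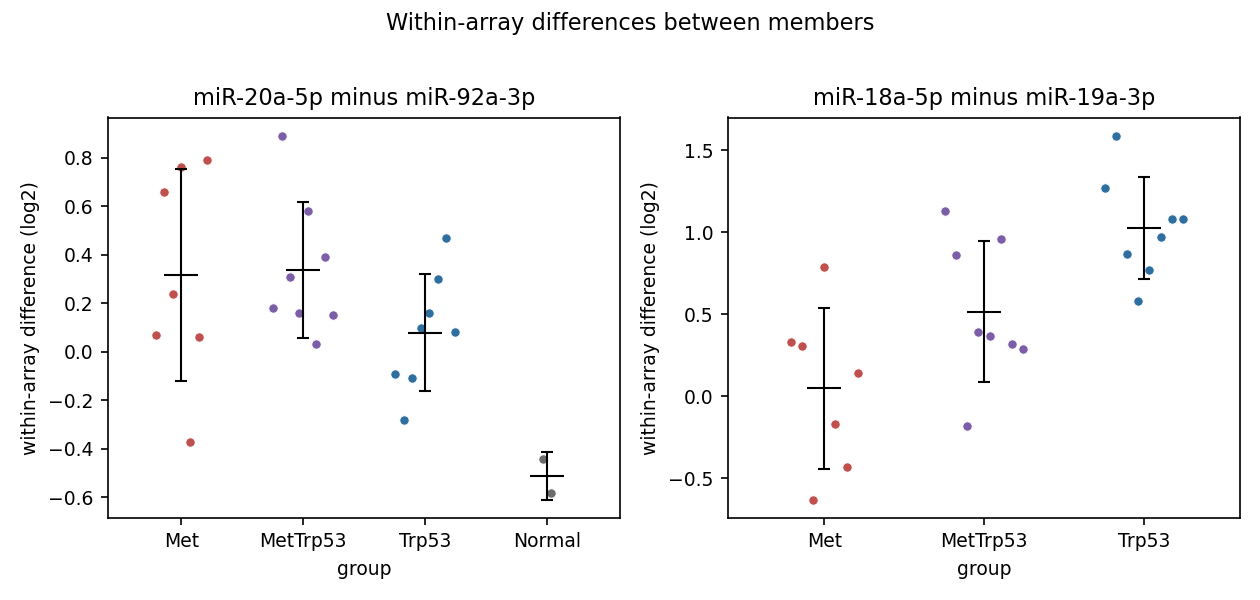
Within-array difference (log2, vertical axis) of miR-20a-5p minus miR-92a-3p in Met, MetTrp53 and Trp53 tumours and normal pools (left) and of miR-18a-5p minus miR-19a-3p in the tumours (right). Points are arrays and black bars the mean and SD. On the left every tumour is above both pools, at -0.58 and -0.45. On the right the means are 0.05 in Met and 1.03 in Trp53 tumours.

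Members varied together across the 23 tumours. Of the 15 pairs, 14 had a Pearson permutation p, adjusted over the 15, under 0.05. The closest pair was miR-19a-3p with miR-19b-3p (r = 0.96, rho = 0.95, permutation p = 1e-05 for both, the smallest 100000 resamples can give, adjusted p = 1.87e-05 and 5e-05). Without the 2 tumours farthest from the median r was 0.95, within genotypes 0.93 to 0.99, and after removing slide means 0.96.
miR-17-5p correlated with miR-20a-5p at r = 0.89 and rho = 0.78 (permutation p = 1e-05 and 3e-05, adjusted 1.87e-05 and 9e-05), with r = 0.76 without the 2 farthest tumours and 0.75 to 0.97 within genotypes. As miR-17-5p was well above background in 14 of the 23 tumours, its r with any member rests in part on values at the floor. The near-identical probes within each of these seed pairs may share signal, which was not tested. miR-92a-3p was closest to miR-20a-5p (r = 0.82, rho = 0.80, permutation p = 1e-05 and 4e-05, adjusted 1.87e-05 and 0.0001, r = 0.70 without the 2 farthest).
The lowest was miR-18a-5p with miR-92a-3p (r = 0.39, rho = 0.32, permutation p = 0.0639 and 0.143), which did not pass. By Spearman's rho miR-19a-3p with miR-92a-3p (0.34, adjusted p = 0.123) also missed the threshold. For comparison, the median r over all pairs of tested miRNAs was 0.00, and 95% of pairs had an r below 0.62. Some member pairs passed without standing out from that spread, as miR-19a-3p with miR-92a-3p (r = 0.51) and miR-19b-3p with miR-92a-3p (r = 0.62). The share of all pairs that pass the same test is not given here. The correlated levels share arrays and the scaling factor. Over 12 relations of member level to the scaling percentile or the share of spots well above background, none had an adjusted p under 0.05, and the closest was miR-19a-3p with that share (r = 0.49, rho = 0.48, permutation p = 0.017 and 0.0208, adjusted 0.204 and 0.25, r = 0.43 without the 2 farthest).

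**Figure D5:**
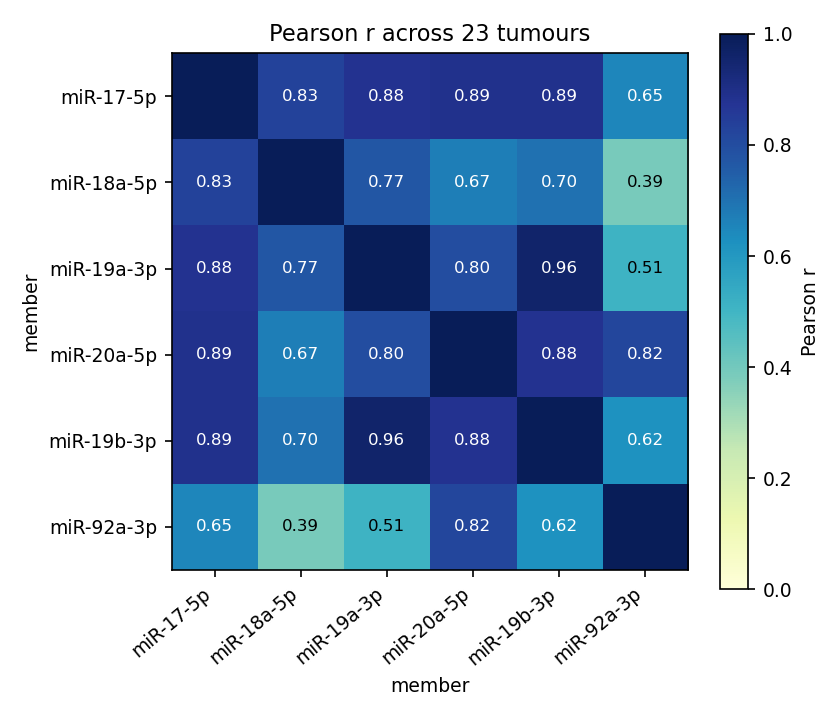
Pearson's r between the levels of the 6 members (both axes) across 23 tumours, with colour from 0 to 1. The highest value is 0.96, for miR-19a-3p with miR-19b-3p, and the lowest 0.39, for miR-18a-5p with miR-92a-3p.

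The other arms of the same hairpins were mostly below what the array measured. Of 6 on the array 2 were tested, and the other 4 (miR-19a-5p, miR-20a-3p, miR-19b-1-5p and miR-92a-1-5p) were never well above background. miR-17-3p, from the hairpin of miR-17-5p, rose in tumours by 0.80 (SE 0.26, limma adjusted p = 0.0458), with levels of 4.12 to 5.35 in tumours and a mean of 3.72 ± 0.16 (SD, n = 2) in pools. Pool 1 lay on the floor of 3.60 and was not well above background, and pool 2 was at 3.83. The floor therefore enters the size of this difference. miR-18a-3p stayed at the floor on most arrays, at 3.60 to 3.72 in tumours.

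Among the 7 paralog products 6 were on the array and 4 were tested, since miR-18b-5p and miR-363-3p were never well above background and miR-106a-5p was not measured. miR-20b-5p rose in tumours by 1.41 (SE 0.43, limma adjusted p = 0.0287) and miR-93-5p by 1.07 (SE 0.28, adjusted p = 0.00945). miR-106b-5p at 0.77 (adjusted p = 0.0587) and miR-25-3p at 0.77 (adjusted p = 0.0547) missed the threshold. miR-20b-5p, which differs from miR-20a-5p by U1C and U10C, was at 5.86 to 8.65 in tumours and 5.29 to 5.84 in pools. Its probes may share signal with those of miR-20a-5p, which was not tested.
In spindloid tumours against carcinomas, miR-106b-5p fell, with a log2 difference of -0.54 (SE 0.16, adjusted p = 0.0467 by limma). miR-93-5p gave -0.55 (adjusted p = 0.0541), miR-25-3p, which shares the seed of miR-92a-3p, -0.50 (adjusted p = 0.0658) and miR-20b-5p -0.50 (adjusted p = 0.402).

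Likeness to the cluster was measured as the mean Pearson r with the 6 members over the 23 tumours, as a description without a test. miR-20b-5p had the highest, at 0.87 (0.70 to 0.97 over the members), and miR-17-3p had 0.82. The value of miR-20b-5p may hold signal of the near-identical miR-20a-5p, which was not tested. miR-93-5p had 0.57, miR-106b-5p 0.52, miR-25-3p 0.28 and miR-18a-3p 0.10. Outside the cluster and its paralogs the highest were miR-669f-3p (0.66), miR-466b-3p (0.64), miR-467a-3p (0.63), miR-467b-5p (0.62) and miR-467e-5p (0.62). These 5 were well above background in 13, 6, 15, 8 and 8 of the 23 tumours, in the same order, so that their r rests in part on values at the floor.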

How the data were processed

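Total RNA from snap-frozen tissue was extracted with the miRNeasy kit, and Cy3-labelled miRNA was run on one-colour Agilent arrays, per the labels' protocols. The deposited scanner files hold spot intensity from Agilent Feature Extraction 10.7.3.1, background-subtracted and not normalised between arrays, per the file headers. The authors also deposited a log2 table per spot, made with RMA per the submitters' processing notes. Its column medians were 1.72 to 1.91 and its columns followed log2 intensity (r = 0.968 to 0.983), so its scale and direction are known and its centring is not.

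Groups and pathology came from the labels, and replicates were numbered in accession order, so no number pairs samples. Nothing says that each tumour came from its own animal, and the titles give 2 pairs of Trp53 tumours the same number, so p-values measure only the spread between these samples. Members, lists and tests were chosen with earlier results of these data known.

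The processed signal, without outlier spots, was averaged over the spots of a probe. The probe signal was divided by each array's 75th percentile over the 221 probes well above background on all 25 arrays. It was floored at 0.0212 of that percentile, rescaled by the median percentile of 572.5 and put on the log2 scale. The log2 values of a miRNA's probes, 2 for each member, were then averaged. Detection on 7 or more tumour arrays, or in both pools, admitted 330 miRNAs. limma 3.58.1 (R 4.3.3) fitted, with lmFit and eBayes, 1 model of 4 groups on 25 arrays, where tumours against normal is the mean of the 3 genotypes minus normal, and 1 of pathology class with genotype on 22 tumours. The fits were tested on simulated data. The number of arrays, above all of pools, limits the precision. Named miRNAs were the 6 members, their other arms, the paralog products and the 5 others most like the members. Pools lie on slides 1 and 3 of 5 slides, scanned on 3 dates. Alternatives changed scaling, background (normexp with offset 50 on the median signal, as the mean signal is not in the files used), source, probe summary, floor, filter, batch terms, eBayes settings, covariates and samples. Permutation tests used numpy 2.4.6, with ranks from scipy 1.17.1.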

Additional observations from a re-analysis of the deposited data

Results flagged for a closer look

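Within a group of 4 to 10 arrays, a value was marked when the gap between the highest or lowest array and its neighbour exceeded Dixon's critical value, which chance alone does for about 1 in 20 groups. The level of miR-17-5p in Trp53 tumour 5, an intermediate tumour, was 4.30, the highest of the Trp53 tumours. MetTrp53 tumour 7 stood above the other spindloid tumours both for miR-17-5p, at 4.15, and for miR-18a-5p, at 6.91.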

How the results depend on the processing

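No difference of a member that passed changed direction in any alternative. In tumours against normal, miR-19a-3p also passed with normexp, the authors' deposited table, the brightest probe or a floor 4 times lower. miR-18a-5p did not pass with a floor 2 times higher. The number of members called in that comparison was 3 here, and 1 when scaled over all mouse probes. In Met against normal it was 2, then 1 with that scaling, and 4 with normexp, a floor 4 times lower, the brightest probe, a filter for detection on every array or the authors' deposited table. In MetTrp53 against normal it was 4, then 1 with that scaling and 2 with a floor 2 times higher. It was 3, without miR-19a-3p, with quantile normalisation, no filter, slide or scan date as a block, or title numbers averaged. In Trp53 against normal the brightest probe added miR-19b-3p (limma adjusted p = 0.0337). The number called there was 2 here, then 1 with that scaling, 1 with a floor 2 times higher and 0 with scan date as a block. In spindloid against carcinoma it was 1, and 0 with all mouse probes, quantile normalisation, the authors' table, trend and robust eBayes, slide as a block, no filter, a filter for detection on every array, a block for scan date, or only tumours with the Trp53 deletion. The cause was not tested. Leaving out each array gave 0 to 3 members in tumours, 0 to 4 in Met, 0 to 4 in MetTrp53 and 0 to 3 in Trp53 against normal, 0 to 1 in spindloid against carcinoma, 0 to 6 of 15 pairs (5 with all arrays) in tumours against normal 0 to 2 (0 with all) in spindloid against carcinoma and 1 to 3 (1 with all) in Met against Trp53. The lowest counts against normal came without a pool. No paired analysis was possible because the replicate numbers follow accession order. Low signal limits miR-17-5p, and in the pools miR-18a-5p and miR-19a-3p. It also touches these last 2 in tumours, where 1 probe of each was not well above background in every tumour. Over all tested miRNAs, settings that moved a count of calls by more than 1.5 times gave 26 in tumours (42 here), 26 and 27 in Met (41 here), 30 in MetTrp53 (49 here) and 21 and 29 in Trp53 tumours (44 here) against normal, under normexp or detection on every array. Without pool 1 these 4 counts were 17, 13, 22 and 20, and without pool 2 they were 26, 22, 29 and 26. They gave 6 to 16 in MetTrp53 against Met (0 here), 7 to 20 in Met against Trp53 (33 here), 0 to 32 in the F-test (19 here), 0 to 38 in spindloid against carcinoma (19 here) and 2 to 13 in intermediate against carcinoma (0 here). Fits on tumours that state parity or pathology, without the covariate, were added after seeing the data. Averaging tumours of 1 title number was not run for pathology, as 1 such pair differs in class, and without the filter 416 miRNAs that varied between tumours were tested.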
